A study of Arabidopsis thaliana with 42 samples.

Results

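The hypocotyl, the short stem of the seedling between root and cotyledons, was compared with the vegetative shoot apex in Arabidopsis thaliana. The comparison rests on 6 of 42 arrays, chosen by the tissue given in the sample labels: 3 of hypocotyl and 3 of the vegetative apex. Both groups were of the wild-type strain Col-0, with no transgene or mutation given, and cultivation was on soil under constant light, at 23 °C and 65% relative humidity. Plant age, the number of plants per sample and any treatment do not stand in the labels used here. The other arrays were of 5 further Col-0 organs and of inflorescence apices of 7 floral mutants, each with 3 arrays. Of these, the second internode of the stem and the inflorescence apex after bolting, both Col-0 and grown alike, served here for a second stem-apex comparison.

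The hypocotyl forms in the embryo. After germination it grows mainly by elongation of cells that are already present, while its vascular strand adds lignified walls. The vegetative apex holds the stem cells of the shoot with the youngest leaf primordia, where cells divide, acquire an upper or lower side and begin to build chloroplasts. Differences between the organs can therefore be read by role: organ formation, division, plastid building, wall growth, vascular tissue, and chemical defence.

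Signals are given as the deposited MAS5 values, an intensity per probe set that was already scaled within each array, as mean ± SD of the 3 arrays. Signals of different probe sets are not comparable with each other. A change is the log2 ratio of hypocotyl to apex after 8 was added to every signal, with ± its standard error, and was called at an adjusted p under 0.05 in a fit over all 21 Col-0 organ arrays. Signals near or under 8 are close to background, and there the added 8 sets the size of the change. Whether replicates of an organ were separate plants is not stated in the labels, so each p-value reflects the spread between arrays, and this spread may be purely technical. In a bulk sample, fewer cells of a type and less RNA per cell cannot be told apart.

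Replicate arrays correlated at 0.991 to 0.992 in the hypocotyl and at 0.990 to 0.992 in the apex, across probe sets. Median signals were 44.8 to 45.7 in the hypocotyl and 41.8 to 42.6 in the apex. The log2 ratio of 3′ to 5′ signal of the actin, GAPDH and ubiquitin controls, a measure of RNA integrity, was 0.67 to 0.96 in the hypocotyl and 0.34 to 0.48 in the apex. The ratio did not overlap between the organs, so it moved with every difference described here. With this ratio as a covariate 53.8% of probe sets were called, against 73.8% without it. Where that fit changed the call or the direction of a gene named here, or moved a list's count by more than 1.5 times, its value stands beside the result.

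Of 16041 probe sets tested, 11835 (73.8%) differed between the organs. In the hypocotyl 5684 (35.4%) were higher and 6151 (38.3%) lower, and the median change over all probe sets was -0.037. At 2-fold or more the split turned: 1902 (11.9%) were higher and 1232 (7.68%) lower. The size of this excess depends on the scaling. With each array scaled to the same median 1664 were higher and 1487 lower, and under quantile normalization 1871 and 1436. At 4-fold or more 486 were higher and 163 lower. Signals of the 3 hypocotyl and 3 apex arrays did not overlap for 12145 probe sets (75.7%). With so many calls, the size and direction of a list say more than the number of its called members. Each list count below is to be read beside the 35.4% higher and 38.3% lower among all probe sets.

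The extreme probe sets, chosen after their values were seen, were mostly without a gene symbol in the annotation used. The probe set 250500_at, which that annotation pairs with no gene, read 834, 716 and 754 in the hypocotyl and 1.39, 0.991 and 2.66 in the apex, a change of 6.33 ± 0.18 (adjusted p = 2.1e-19). It was strong on each hypocotyl array and at background on each apex array. At the other end AT5G59330 read 7.96, 7.11 and 2.28 in the hypocotyl and 593, 556 and 579.9 in the apex, and fell by 5.43 ± 0.20 (adjusted p = 2.6e-17). Among the 100 highest changes without overlap 8 probe sets carried a symbol, 39 only a locus name and 53 no gene, and among the 100 lowest the numbers were 5, 38 and 57.

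The labels were checked against markers of what each sample might hold. Among the 8 root and root hair genes with a probe set, only JKD and RL2 passed the filter on low signals, and neither was called. Their defining members were near background in both organs, with EXPA7, an expansin of root hairs, at 8.45 in the hypocotyl and 9.36 in the apex. The summed signal of the 8 root genes was 113 to 135 on hypocotyl arrays and 127 to 148 on apex arrays. RL2 (means of 57.0 in the hypocotyl and 68.3 in the apex) and JKD (21.7 and 22.1) made up most of it. The sum therefore cannot show whether a sample held root tissue. Of 8 seed and reserve genes SDP1 and EEL passed the filter, and the sums were higher in the hypocotyl, at 127 to 148 against 99.9 to 120. SDP1 was called higher, with a change of 0.66 (means of 89.3 and 53.2), and EEL lower, with -0.37. Neither was called with the RNA ratio as a covariate. The embryo genes M10 and M17 were near 0. Of 12 anther, pollen and ovule genes 3 passed the filter, and the sums were 273 to 290 and 185 to 205. Of the 3, CYP78A9, a cytochrome P450 known from fruit and ovule growth, rose by 2.44 ± 0.13, EMS1, a receptor kinase known from anthers, fell from 96.8 to 17.2 in mean signal, and the third was not called. The anther factor AMS was near background at 5.17 and 5.22.

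Genes that form leaves and other lateral organs were on the whole lower in the hypocotyl. Of 28 tested regulators of the apex and its organs 19 fell and 5 rose, beside 38.3% lower and 35.4% higher among all probe sets. Their median change was -0.67, against -0.037 over all. With the RNA ratio as a covariate 13 fell and 4 rose. Of the list's members, 5 lay under the filter on low signals (NGA3, NGA4, PUCHI, RBE and SAP). YAB3, a YABBY transcription factor of the lower side of lateral organs, read 12.2, 17.2 and 22.5 in the hypocotyl and 219, 226 and 219 in the apex. Every apex array was well above every hypocotyl array, and YAB3 fell by 3.2 ± 0.12 (adjusted p = 4.8e-17). Its relative YAB5 fell by 1.43 ± 0.16, from 40.2 ± 1.26 to 10.1 ± 3.06.

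JAG and NUB, paired zinc finger factors that promote growth of lateral organs, were also low in the hypocotyl. NUB read 7.17, 10.1 and 13.5 there and 56.6, 57.0 and 55.8 in the apex, and JAG 7.31, 9.42 and 7.64 against 25.5, 25.3 and 23.7. The groups did not overlap for either gene, and the changes were -1.83 ± 0.15 and -1.03 ± 0.17 (adjusted p = 5.9e-11 and 6.6e-06). NGA1 and NGA2, B3 factors of leaf margins and styles, fell by 1.37 and 1.01; with the RNA ratio as a covariate they changed by -0.56 and -0.49 and were not called. SPT, a bHLH factor of carpel and leaf growth, fell by 0.72. ULT1, which restricts meristem size, fell by 1.33, the class I TCP factor TCP15 by 1.29, and FD, a bZIP factor that acts with the florigen FT, by 0.80.

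Other members of this list went the opposite way: 5 rose, among them PTL, ARL, ROXY2 and POL. POL changed by 0.44 ± 0.066, and its value with the RNA ratio as a covariate is not given here. PTL, a trihelix factor known from petals, read 107, 97.7 and 86.1 in the hypocotyl and 43.5, 46.5 and 44.9 in the apex, a rise of 0.98 ± 0.13 (adjusted p = 3.0e-07). ARL, which promotes cell expansion, rose by 1.52 ± 0.12, from 62.1 ± 14.6 to 191 ± 12.5. The related glutaredoxins ROXY1 and ROXY2, which act together in anthers while ROXY1 also acts in petals, split. ROXY1 read 8.45, 5.21 and 4.03 in the hypocotyl and 56.7, 57.1 and 52.4 in the apex, and ROXY2 99.1, 96.5 and 70.1 against 3.86, 18.6 and 19.8. Their hypocotyl and apex arrays lay apart in opposite order, with changes of -2.2 ± 0.20 and 2.21 ± 0.29. Among meristem genes TSO1, a regulator of division in flowers, fell by 0.69 ± 0.058. LAS, of axillary meristems, changed by -0.16 ± 0.12 (adjusted p = 0.25), and the polarity factor PHV by 0.021 ± 0.077 (adjusted p = 0.82), and neither was called (LAS fell by 0.29 under quantile normalization). UFO, a floral F-box gene, was at background in both organs (1.37 ± 0.314 and 1.73 ± 0.839), and CLV3, the stem cell peptide, did not pass the filter.

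Chromosome and division genes were lower in the hypocotyl. Of 12 genes of histones and chromosome packaging 11 fell and none rose, with a median of -1.06. HTB1, a histone H2B, read 132, 126 and 107 in the hypocotyl and 561, 556 and 531 in the apex. The apex arrays were several times the hypocotyl arrays without overlap, and the change was -2.11 ± 0.082 (adjusted p = 7.2e-17). HTB2 changed by -1.55, HTB4 by -1.18 and HTB11 by -0.95. The centromeric histone H3, HTR12, fell by 1.24 ± 0.14, and 3xHMG-box2, which binds chromosomes in mitosis, by 1.36 ± 0.083. The linker histone HIS1-3 was the member not called (-0.071 ± 0.20, adjusted p = 0.76).

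DNA replication gave the same picture, with 9 of 10 genes lower, none higher and a median of -1.01. PRL, the MCM7 subunit of the replicative helicase, read 112, 122 and 118 in the hypocotyl and 347, 359 and 360.2 in the apex. No hypocotyl array reached an apex array, and PRL fell by 1.54 ± 0.074 (adjusted p = 4.2e-15). PSF2, of the GINS complex, fell by 1.27 and the helicase RECQ4A by 1.3. ATLIG4, a ligase of end joining outside replication, changed by 0.29 and was not called (adjusted p = 0.055), though it was called in a fit of only the 6 arrays and, at 0.38, without apex replicate B.

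Mitosis and cytokinesis genes went both ways. Of 22, 13 fell and 6 rose, with a median of -0.54. With the RNA ratio as a covariate 11 fell and 3 rose. KINESIN-12B, of the phragmoplast, read 35.6, 37.1 and 37.1 in the hypocotyl and 89.9, 107 and 101 in the apex and fell by 1.27 ± 0.11. The histone kinase Haspin fell by 1.11, the checkpoint protein BUBR1 by 1.05, and the Aurora kinases AUR1, AUR2 and AUR3 by 0.53, 0.71 and 0.89. Those that rose included TPLATE, of membrane traffic to the cell plate and the plasma membrane, by 0.49, and ATMAP65-6, a microtubule-bundling protein. ATMAP65-6 read 272, 359 and 292 in the hypocotyl and 110.4, 110.4 and 117 in the apex, a rise of 1.38 ± 0.073 (adjusted p = 2.3e-14). All 12 subunits of nuclear RNA polymerases tested were lower in the hypocotyl, with a median of -0.75 and a range from -1.1 for NRPE7, of polymerase V, to -0.31 for NRPB9B, of polymerase II. With the RNA ratio as a covariate 9 of the 12 were called lower, and NRPB9B changed by -0.08 and was not called. NRPA2, the second subunit of polymerase I, read 173, 162 and 145 in the hypocotyl and 290.4, 304 and 332 in the apex, and its arrays did not overlap.

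The stomatal lineage was close to background in the hypocotyl. SPCH, the bHLH factor that starts the lineage, read 1.69, 1.64 and 4.3 there and 79.5, 70.9 and 58.8 in the apex. STOMAGEN, a peptide of the leaf mesophyll that raises stomatal number, read 0.841, 6.53 and 3.21 against 101, 71.0 and 71.0. Both were at background on the hypocotyl arrays and clear of it on all apex arrays, with changes of -2.88 ± 0.14 and -2.96 ± 0.15 (adjusted p = 2.7e-15 and 1.5e-14). FMA, of guard cell fate, fell by 0.81 ± 0.16 (-0.31 and not called with the RNA ratio as a covariate), and MUTE, which acts between them, did not pass the filter. The summed signal of these 4 genes was 12.9 to 22.4 on hypocotyl arrays, 165 to 208 on apex arrays and 338 to 366 on the arrays of apex with young leaves. The part of young leaf cells in the differences from the apex was not tested. Among trichome genes TRY, GIS and BLT fell by 0.85 to 0.87 from low apex signals of 18.4 to 28.0. SIM, a cell cycle inhibitor that promotes endoreduplication, rose by 0.71 ± 0.10, and was not called with the RNA ratio as a covariate (0.41, adjusted p = 0.058).

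**Figure D1:**
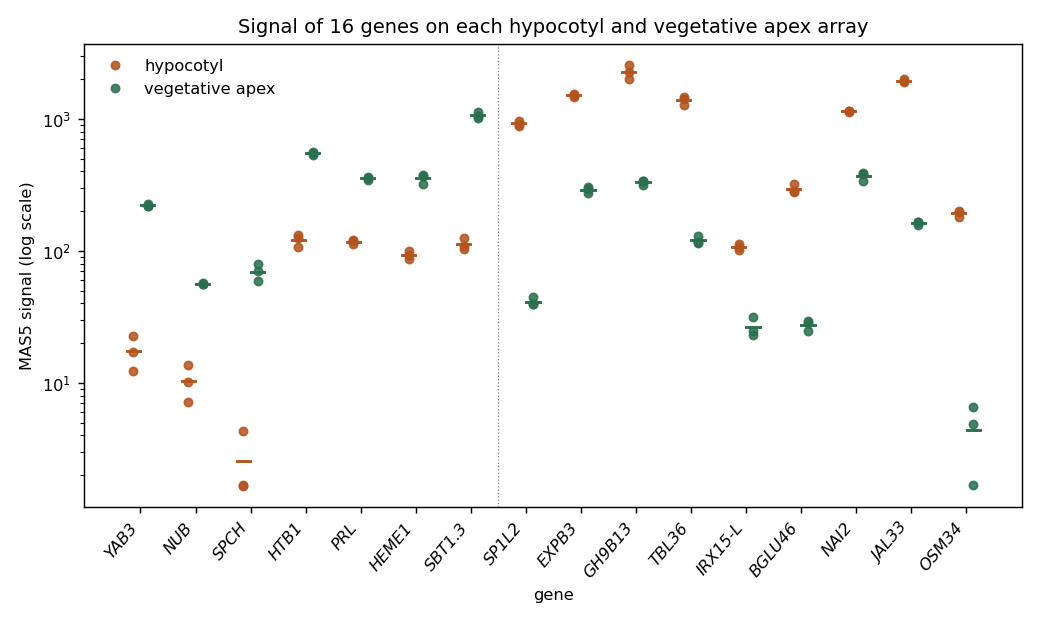
Signal on each array for 7 genes that were lower in the hypocotyl (left of the dotted line) and 9 that were higher (right). Points are the 3 hypocotyl and 3 vegetative apex arrays, bars are their means, and the vertical axis is the MAS5 signal on a log scale. For each of the 16 genes the hypocotyl and apex points lie apart, as they did for 75.7% of all probe sets. Many of the 16 were picked by a rule that required this. SP1L2 stands at a mean of 924 against 41.3, and YAB3 at 17.3 against 221; heights of different genes are not comparable.

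Most genes of chlorophyll and haem synthesis were lower in the hypocotyl, while plastid-encoded genes were mixed and more often higher. Of 10 genes of chlorophyll and haem metabolism 9 fell in the hypocotyl, with a median of -0.89. HEME1, a uroporphyrinogen decarboxylase, read 93.3, 86.9 and 99.2 in the hypocotyl and 321, 368 and 376 in the apex. The groups did not overlap, and HEME1 fell by 1.84 ± 0.067 (adjusted p = 2.0e-17). CHLI2, a subunit of magnesium chelatase, fell by 1.74 ± 0.083, HEME2 by 1.41 ± 0.056 and PORB, which reduces protochlorophyllide, by 0.91 ± 0.088. NOL, which acts in chlorophyll breakdown, was among those that fell (-0.94).

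Nuclear genes of the thylakoid were slightly lower in the hypocotyl. Of 25, 19 fell and 5 rose, with a median of -0.39. With the RNA ratio as a covariate 17 fell and 3 rose. LIL3:1, a light-harvesting-like protein that stabilises enzymes of chlorophyll synthesis, read 191, 192 and 188 in the hypocotyl and 451, 446 and 466 in the apex and fell by 1.22 ± 0.047. PAM68 and HCF101, assembly factors of photosystems II and I, fell by 0.91 and 0.90. The structural antenna protein LHCB4.1 moved less, from 2327 ± 74.9 to 1773 ± 47.2, a fall by 0.39 ± 0.058. Its paralogue LHCB4.3 rose by 0.42 ± 0.078, and NdhS, of the plastid NDH complex, by 0.72 ± 0.081. Of 7 genes of the Calvin cycle and photorespiration 1 rose and 3 fell, with a median of -0.08. The lowest change, -1.37, belonged to a member not named here. SBPASE, a bisphosphatase of the cycle, fell by 0.56 ± 0.068. RCA, the Rubisco activase, and PRK, a kinase of the cycle, were not called (0.033 ± 0.072 and -0.082 ± 0.051). RCA rose by 0.30 under quantile normalization, and PRK fell by 0.18 with each array scaled to the same median and by 0.12 without hypocotyl replicate A.

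Plastid-encoded genes were more often higher than lower in the hypocotyl. Of 69, 41 rose and 8 fell, with a median of 0.32. With the RNA ratio as a covariate 18 rose and 8 fell, with a median of 0.09, so most of these rises were not called in that fit. psbA, for the D1 protein of photosystem II, read 1147, 1147 and 1046 in the hypocotyl and 251, 244 and 300.0 in the apex. All hypocotyl arrays were above all apex arrays, and psbA rose by 2.04 ± 0.13 (adjusted p = 4.0e-13). rbcL, the large subunit of Rubisco, rose by 1.08 ± 0.096, from 209 ± 10.5 to 450.1 ± 8.03. Of 16 genes of the plastid NDH complex and ATP synthase 13 rose and none fell (median 0.72), led by ndhJ at 1.61 ± 0.10, and 6 rose with the covariate. Genes of the plastid's own ribosomes and polymerase did not share this direction. Of 22, 8 rose and 7 fell, from the ribosomal genes rpl22 (-0.70 ± 0.069) and rpl33 (-0.66 ± 0.066) to rps14 (1.46 ± 0.14). The covariate left 3 of them higher and 7 lower, and turned the list's median from 0.13 to -0.23.

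Mitochondrial-encoded genes were higher in the hypocotyl. A copy of much of the mitochondrial genome lies in nuclear chromosome 2 of Arabidopsis, and signals from that copy cannot be told apart from those of the organelle by these probe sets. Of 12, 11 rose and none fell, with a median of 0.98, and 11 also rose with the RNA ratio as a covariate. cox1, a subunit of cytochrome c oxidase, read 254, 239 and 260.4 in the hypocotyl and 107, 97.4 and 121 in the apex. Each hypocotyl array was well above any apex array, and cox1 rose by 1.16 ± 0.12 (adjusted p = 5.1e-09). cox2 rose by 1.49 ± 0.15 and nad4, of complex I, by 1.2 ± 0.16. The nuclear genes of the tricarboxylic acid cycle moved far less, with 5 of 5 higher (3 with the covariate) and changes from 0.18 for SDH2-2 to 0.45 for SDH1-1, both succinate dehydrogenase subunits. SDH2-2 was not called with the RNA ratio as a covariate (0.19) or with each array scaled to the same median (0.078).

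Wall-loosening genes were mostly higher in the hypocotyl. Of 12 expansins, which loosen growing walls, 9 rose and 2 fell, with a median of 0.76, or 7 and 1 with the RNA ratio as a covariate. EXPB3 read 1556, 1506 and 1467 in the hypocotyl and 306, 296 and 273 in the apex. Its hypocotyl arrays were all several times the apex arrays, a rise of 2.34 ± 0.078 (adjusted p = 4.3e-18). EXPA4 rose by 1.52 ± 0.066, EXLA1 by 2.31 ± 0.13 and EXLA3 by 2.88 ± 0.16. EXPA20 fell by 0.87 ± 0.11. Beside these, 6 expansin genes lay under the filter.

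Of 6 xyloglucan endotransglucosylases, which cut and rejoin xyloglucan, 5 rose, among them XTH18 (1.66 ± 0.16), EXGT-A3 (1.36 ± 0.083) and XTH19 (1.29 ± 0.16). XTH16 was the exception, with 49.7, 60.7 and 66.3 in the hypocotyl and 316, 293 and 301 in the apex. It fell by 2.23 ± 0.069 (adjusted p = 1.1e-18), among the largest falls of genes with a symbol. Of 7 GH9 endoglucanases 5 rose (3 with the RNA ratio as a covariate), and 8 more lay under the filter. GH9B13 read 2006, 2562 and 2264 in the hypocotyl and 337, 316 and 337 in the apex, a rise of 2.75 ± 0.078 (adjusted p = 2.2e-19) without overlap. GH9B8 rose by 2.21 ± 0.12 and GH9C2 by 1.51 ± 0.053.

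Among microtubule genes 1 gene stood apart. SP1L2, a relative of SPIRAL1, which orients cortical microtubules in elongating cells, read 915, 969.6 and 886 in the hypocotyl and 39.7, 44.9 and 39.4 in the apex. Every hypocotyl array was more than an order of magnitude above every apex array, and the rise of 4.24 ± 0.10 (adjusted p = 1.9e-20) was the highest among genes picked by the naming rule. Its relatives rose less or were not called: SPR1 itself by 0.69 ± 0.058, SP1L5 by 0.88 ± 0.14 and SP1L3 by 0.27 ± 0.05 (0.17 and not called with the RNA ratio as a covariate), while SP1L4 changed by 0.23 ± 0.14 (adjusted p = 0.15; 0.38 and called without apex replicate A). Tubulins were mixed, with TUB6 higher (0.61), TUA6 and TUB7 lower (-0.59 and -0.72) and TUB5 and TUB9 not called.

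Genes of secondary walls and of lignin were mostly higher in the hypocotyl. Of 10 genes of secondary wall xylan 9 rose and none fell, with a median of 1.11, and 6 rose with the RNA ratio as a covariate. IRX15-L, needed for normal xylan, read 106, 113 and 102 in the hypocotyl and 31.8, 24.5 and 23.1 in the apex. The arrays did not overlap, and IRX15-L rose by 1.74 ± 0.15 (adjusted p = 1.4e-10). Its paralogue IRX15 rose by 1.29 ± 0.22 from a signal near background in the apex (7.9 ± 5.17; 0.97 with the RNA ratio as a covariate, adjusted p = 0.052), and GUT2, which extends the xylan backbone, by 1.00 ± 0.10. GUT1, the close relative of GUT2, changed by 0.051 ± 0.06 and was not called (adjusted p = 0.46).

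The trichome birefringence-like family, whose studied members add acetyl groups to wall polysaccharides, rose in 13 of 17 members and fell in 1, or 8 higher with the RNA ratio as a covariate. TBL36 read 1277, 1416 and 1476 in the hypocotyl and 114, 117 and 130.5 in the apex, apart on every array, a rise of 3.44 ± 0.081 (adjusted p = 1.1e-20). TBL30 rose by 2.21 ± 0.14 and TBL38 by 2.15 ± 0.076. TBL39 and TBL26 were not called (0.0041 ± 0.059 and -0.087 ± 0.16).

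Of 16 genes that supply or modify lignin monomers 12 rose and 1 fell, with a median of 0.99. BGLU46 and BGLU45 are glucosidases that release monolignols from their glucosides. BGLU46 read 284, 321 and 277 in the hypocotyl and 28.5, 24.6 and 29.2 in the apex, and BGLU45 50.5, 54.7 and 44.0 against 6.81, 6.56 and 3.64. Every hypocotyl array stood clear of the apex, where BGLU45 was at background, and they rose by 3.09 ± 0.11 and 2.08 ± 0.12. UGT72E1, which glucosylates monolignol aldehydes, rose by 2.18 ± 0.19, and CCR2, a cinnamoyl-CoA reductase, by 2.64 ± 0.17. HCT, of the shikimate ester step, rose by 0.96 ± 0.05, from 319 ± 1.08 to 627 ± 19.2.

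Vascular genes were more often higher than lower. Of 12, 7 rose and 4 fell, with a median of 0.67. CLE41 and CLE44, whose peptide is made in phloem and keeps the cambium dividing, were both higher. CLE41 read 661, 633 and 627 in the hypocotyl and 371, 392 and 425 in the apex, and CLE44 118, 116 and 109 against 43.0, 43.0 and 50.7. Neither gene overlapped between the organs, and the rises were 0.68 ± 0.064 and 1.19 ± 0.11. MOL1, a receptor kinase that limits growth of the cambium, rose by 1.43 ± 0.078, the brassinosteroid receptor BRL1 by 1.57 ± 0.16 and OPS, of early phloem, by 0.86 ± 0.11. LHW, a bHLH factor that patterns the embryo's vascular tissue, fell by 0.58 ± 0.07.

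Sugar transporters included members of both directions. SWEET16 and SWEET17, sugar carriers of the vacuole membrane, rose by 1.94 ± 0.14 and 1.4 ± 0.075, and TMT1 and TMT2, of the same membrane, by 0.80 and 0.81. SWEET17 read 821, 843 and 804 in the hypocotyl and 334, 338 and 256 in the apex, clear of each other. SWEET1 fell by 1.08 ± 0.075 and SWEET11, which exports sucrose to the phloem, by 0.41 ± 0.13 (adjusted p = 0.0067). With the RNA ratio as a covariate SWEET11 changed by 0.034 and was not called. Over the 15 sugar transport genes 7 rose and 4 fell, beside 35.4% higher and 38.3% lower among all probe sets. With the covariate 6 rose and 2 fell.

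Chemical defence genes were strongly higher in the hypocotyl. ER bodies are compartments of seedling epidermis that store beta-glucosidases, and glucosinolates are the mustard oil precursors such enzymes can cleave. Of 15 genes of glucosinolates, ER bodies and lectins 13 rose and 2 fell, with a median of 1.28. PYK10, the main ER body glucosidase, read 2719, 3108 and 3122 in the hypocotyl and 1118, 1157 and 1131 in the apex. NAI2, a structural component of ER bodies, read 1134, 1144 and 1144 against 381, 387 and 339. Hypocotyl arrays were higher throughout, with changes of 1.38 ± 0.10 and 1.61 ± 0.071 (adjusted p = 1.9e-11 and 7.6e-16). NAI1, the bHLH factor needed to form ER bodies, rose by 1.4 ± 0.16.

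The jacalin-related lectins, some of which bind the PYK10 complex, held the highest changes of this list. JAL33 read 1954, 1902 and 1998 in the hypocotyl and 166, 158 and 166 in the apex, a rise of 3.51 ± 0.16 (adjusted p = 8.7e-16). JAL22 rose by 2.92 ± 0.12 and JAL34 by 2.76 ± 0.10, each without overlap, while JAL23 fell by 0.39 ± 0.059. The glucosinolate transporters GTR1 and GTR2 rose by 1.04 ± 0.064 and 1.28 ± 0.069, and MYC4, a bHLH factor of jasmonate response and glucosinolate synthesis, by 1.7 ± 0.10. Synthesis genes moved less: UGT74B1, which forms desulfoglucosinolates, rose by 0.75 ± 0.053, and BCAT4, which starts chain elongation of methionine, by 0.19 ± 0.083 (adjusted p = 0.042). BCAT4 was not called with all 42 arrays in the fit (adjusted p = 0.26), with the RNA ratio as a covariate (0.16), without hypocotyl replicate B (0.14) or C (0.20), or without apex replicate A (0.18), B (0.19) or C (0.20).

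Other families of secondary metabolism rose in part. Of 12 beta-glucosidases 8 rose and 2 fell, or 8 and 1 with the RNA ratio as a covariate. BGLU47, chosen by its size of change, read 871, 810.4 and 768 in the hypocotyl and 75.8, 77.6 and 74.2 in the apex, a rise of 3.3 ± 0.10. BGLU44 fell by 0.84 ± 0.071. Of 11 CYP71B mono-oxygenases 7 rose and 1 fell, with CYP71B29 at 2.5 ± 0.19, from background in the apex, and CYP71B22 at -1.04 ± 0.16. Of 7 flavonoid genes 2 rose and 3 fell, or 1 and 1 with the RNA ratio as a covariate. Of 8 thionins and defensins 3 rose and 4 fell, beside 35.4% higher and 38.3% lower among all probe sets. PDF1.4 rose by 2.07 ± 0.16, and the defensin-like LCR69 fell from 2708 ± 100.2 in the apex to 1279 ± 43.3 (-1.08 ± 0.056).

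Stress genes went both ways. Of 16, 11 rose and 4 fell, with a median of 0.93. OSM34, an osmotin-like protein, read 181, 196 and 199.9 in the hypocotyl and 1.69, 6.53 and 4.9 in the apex. It was at background on all apex arrays, and rose by 4.04 ± 0.21 (adjusted p = 1.4e-14). The dehydrins LTI30 and COR47 rose by 3.07 ± 0.15 and 1.06 ± 0.072, and the zinc finger factor STZ by 1.17 ± 0.1. The cold-regulated plastid proteins COR15A and COR15B fell by 1.29 ± 0.14 and 1.19 ± 0.13.

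Vacuolar and autophagy genes were higher in the hypocotyl. All 9 tested ATG8 genes, for the ubiquitin-like protein of autophagosome membranes, rose by 0.20 (ATG8D) to 1.1 (ATG8H), and 5 of these rose with the RNA ratio as a covariate. ATG8D and ATG8H were not called then (0.15 and 0.74), and ATG8D also not without hypocotyl replicate B (0.15) or apex replicate C (0.15). ATG8B read 67.6, 78.1 and 81.6 in the hypocotyl and 34.0, 37.2 and 37.7 in the apex. The arrays lay apart, and the change was 0.92 ± 0.10. ATG3, the enzyme that links ATG8 to lipid, fell by 0.27 ± 0.072 (adjusted p = 0.0019), and changed by 0.11, not called, with the covariate. Of 4 vacuolar processing enzymes, proteases that mature vacuolar proteins, 3 were tested and rose, and DELTA-VPE lay under the filter. BETA-VPE, at 0.35 ± 0.15, was near the threshold (adjusted p = 0.034). It was not called with the RNA ratio as a covariate, under quantile normalization or median scaling, with an offset of 2, without the filter, or without hypocotyl replicate A or C or apex replicate B or C, and in these last 4 fits it changed by 0.28 to 0.36. GAMMA-VPE read 383, 390.0 and 376 in the hypocotyl and 131, 136 and 137 in the apex, a rise of 1.46 ± 0.05, and ALPHA-VPE rose by 2.24 ± 0.22 from background.

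Hormone genes went both ways. Auxin synthesis genes were near background in the hypocotyl: YUC4 read 4.73, 8.57 and 8.84 there and 53.1, 47.6 and 50.9 in the apex, and YUC6 2.74, 3.05 and 0.765 against 8.93, 23.4 and 16.5. Both enzymes make auxin, no hypocotyl array of either reached an apex array, and they changed by -1.94 ± 0.15 and -1.22 ± 0.27. YUC2, of the same family, was not called (-0.28 ± 0.15). Enzymes that conjugate auxin split. GH3.3 fell by 1.31 ± 0.071, from 242 to 92.7 in mean signal, while IAGLU, a glucosyltransferase of auxin, rose by 1.49 ± 0.17 and GH3.17 by 0.72 ± 0.10. Over 14 auxin genes 5 rose and 6 fell, close to the 35.4% higher and 38.3% lower among all probe sets. The cytokinin response regulators RR16 and ARR15 fell by 1.02 ± 0.13 and 0.86 ± 0.11. Of the gibberellin receptors GID1A rose by 0.29 ± 0.079, GID1B fell by 0.58 ± 0.14, and GID1C was not called (0.25 ± 0.17).

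**Figure D2:**
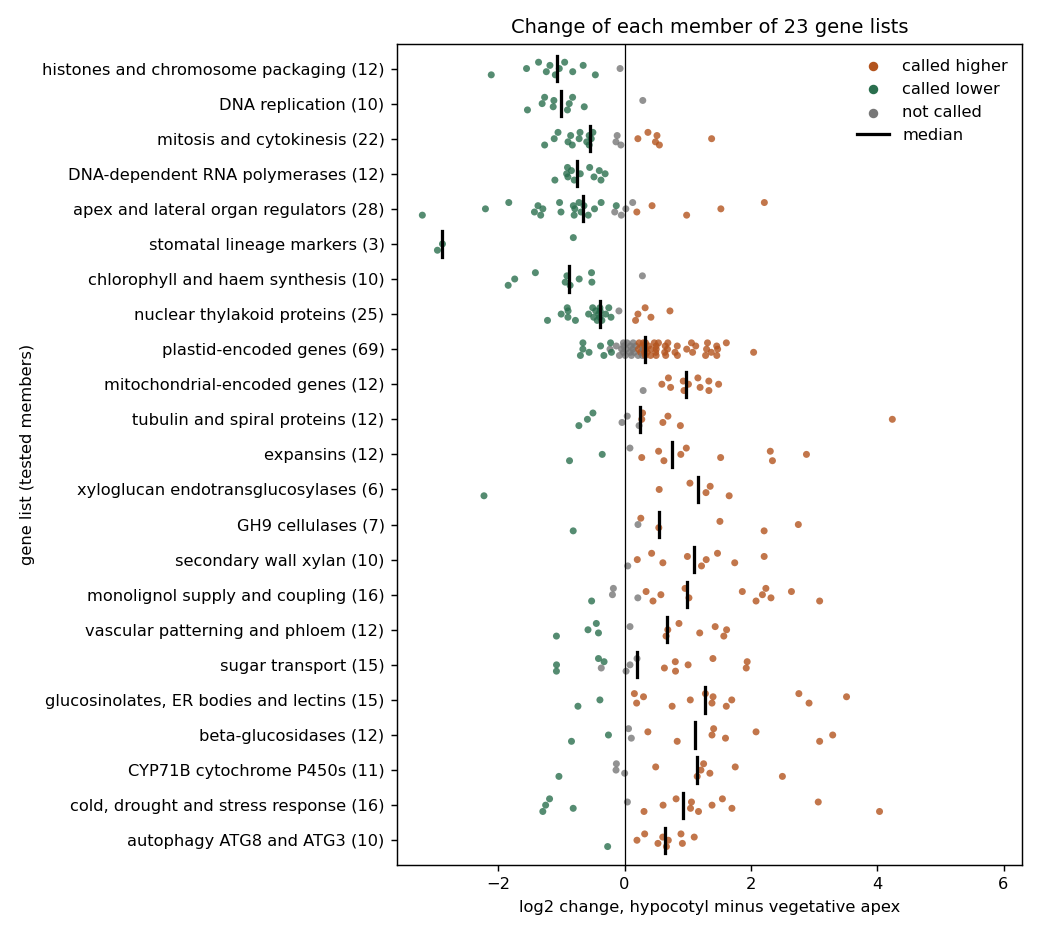
Change of each tested member of 23 gene lists in the hypocotyl relative to the vegetative apex, on the log2 scale of signal plus 8. Each point is 1 gene, coloured by its call, the black bars are list medians, and the vertical scatter within a list carries no value. The histone, replication and RNA polymerase lists lie mainly left of 0, with medians of -1.06, -1.01 and -0.75. The mitochondrial-encoded, secondary wall xylan and ER body lists lie mainly right of 0, with medians of 0.98, 1.11 and 1.28.

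The naming rule also picked genes of other roles by the size of their change. FACT, which makes alkyl caffeates of root waxes, read 135, 138 and 141 in the hypocotyl and 9.63, 15.8 and 11.1 in the apex, a rise of 2.87 ± 0.19 (adjusted p = 1.8e-12). SUFE2, a sulfur donor activator for iron-sulfur clusters, rose by 2.81 ± 0.11, the pectin methylesterase ATPMEPCRD by 2.84 ± 0.14, the receptor-like kinase NCRK by 2.57 ± 0.091 and the plastid protease NANA by 2.46 ± 0.092. All of them were higher on each hypocotyl array. In the other direction SBT1.3, a subtilisin-like protease, read 109, 103 and 124 in the hypocotyl and 1123, 1025 and 1057 in the apex, a mean 9.52 times as high in the apex (adjusted p = 4.5e-21). The calmodulin-binding protein iqd21 fell by 2.66 ± 0.11, the methionine aminopeptidase MAP1C by 2.09 ± 0.077, and the plastid chaperonin Cpn60beta2 by 1.77 ± 0.067. The receptor kinase EMS1 fell by 2.05 ± 0.095, TRM22 by 1.99 ± 0.083, the bHLH factor ATMYC1 by 1.9 ± 0.086 and AGL24, a MADS factor that promotes flowering, by 1.65 ± 0.083. GLC fell by 1.9 ± 0.11 on its main probe set and by 1.06 on its second.

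A stem-apex difference was also measured in flowering plants, as the second internode minus the inflorescence apex, with no array in common. There 6076 probe sets (37.9%) were higher and 7523 (46.9%) lower. The 2 stem-apex differences were both called higher for 3988 probe sets, both called lower for 4903, and called in opposite directions for 1563. The difference between them was itself called for 11432 probe sets (71.3%), with 6582 more positive in the hypocotyl comparison and 4850 less. These splits depend on the scaling. With each array scaled to the same median 7212 were higher and 6249 lower in the internode, and the difference was more positive for 4472 and less for 6981, or for 5627 and 5574 under quantile normalization. The inflorescence apex arrays carried a higher signal of a spiked bacterial control (dap, log2 of 8.08 to 8.21 against 3.07 to 3.70 for the hypocotyl, vegetative apex and internode), and its part in the result was not tested. The log2 ratio of 3′ to 5′ control signal was 0.71 to 0.77 in the inflorescence apex and 0.54 to 0.76 in the internode. Plant stage and organ cannot be told apart between the comparisons.

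Division genes were mostly lower in the stem of both comparisons. The histone list had a median of -1.06 for hypocotyl against apex and -2.17 for internode against inflorescence apex, and DNA replication -1.01 and -2.4. HTB1 read 65.6 ± 10.7 in the internode and 952 ± 91.0 in the inflorescence apex, and its changes were -2.11 and -3.71, which differed by 1.6 (adjusted p = 9.8e-12). The apex and lateral organ list had medians of -0.67 and -1.33, and YAB3 changed by -3.2 and -3.73. Secondary wall xylan genes had medians of 1.11 and 0.52, but single members differed widely. IRX15-L read 1312 ± 71.8 in the internode against 107 ± 5.59 in the hypocotyl, and its changes of 1.74 and 5.86 differed by -4.11 (adjusted p = 1.0e-14).

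Organelle genes did not follow 1 stem pattern. Nuclear thylakoid genes had a median of -0.39 in the hypocotyl comparison and 1.23 in the flowering one, where 20 of 25 were called higher. LHCB4.2 changed by -0.21 and 3.02. Mitochondrial-encoded genes went the other way, with medians of 0.98 and -0.71, and 10 of 12 were called lower in the internode. cox1 changed by 1.16 and -1.24, a difference of 2.4 (adjusted p = 5.9e-12). Plastid-encoded genes were higher in both stems by the median (0.32 and 0.74).

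Some defence and wall genes that rose in the hypocotyl fell in the internode relative to the inflorescence apex. NAI2 changed by 1.61 and -2.47, and read 4.86 ± 0.428 in the internode. GH9B13 changed by 2.75 and -3.2, and read 1118 ± 9.07 in the inflorescence apex. Both differences were called (adjusted p = 1.2e-20 and 6.6e-23). BCAT4 showed the reverse balance, with a change of 0.19 in the hypocotyl comparison and 4.81 in the flowering one.

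**Figure D3:**
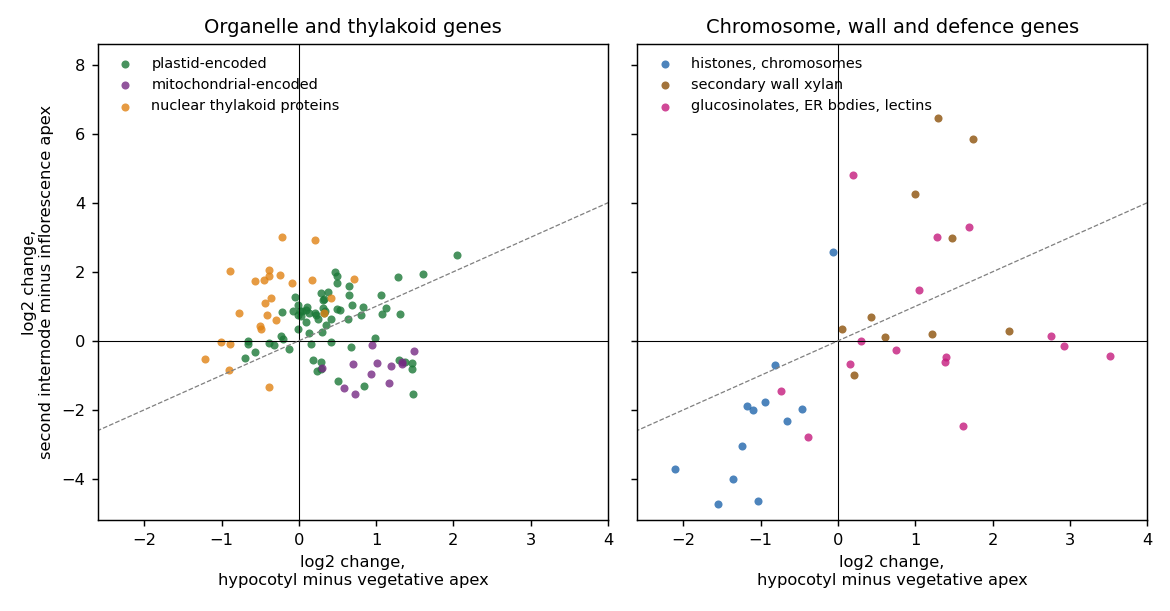
Change of each gene in the hypocotyl relative to the vegetative apex (horizontal axis) and in the second internode relative to the inflorescence apex (vertical axis), both on the log2 scale of signal plus 8. Points are genes of 3 lists in each panel, and the dashed line marks equal change. Mitochondrial-encoded genes lie to the right of and below 0, with medians of 0.98 and -0.71. Most nuclear thylakoid genes lie to the left and above, with medians of -0.39 and 1.23, and most histone genes lie below the dashed line.

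Across the 7 Col-0 organs, the 3 hypocotyl arrays lay above all 18 others for 1369 of 16041 probe sets (8.53%) and below them for 604 (3.77%). Of the 1902 probe sets at least 2-fold higher than in the vegetative apex, 855 (45.0%) were highest in the hypocotyl, and of the 1232 at least 2-fold lower, 191 (15.5%) were lowest there. These shares are descriptions, since the vegetative apex is among the organs ranked. By the gap to the next organ mean on the log2 scale, the leading genes with a symbol were OSM34 (4.03), JAL33 (3.52), BGLU47 (3.3) and ATC (3.04). ATC, a relative of the flowering genes FT and TFL1 named after its values were seen, read 82.5 ± 9.65 in the hypocotyl and a mean of 1.05, at background, in the vegetative apex.

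Levels in the other organs placed the main genes differently. SP1L2 was highest in the hypocotyl, and the next organ was the first node at 133 ± 3.86. GH9B13 read 2277 ± 278 in the hypocotyl and 1118 ± 9.07 in the inflorescence apex, its second organ. HEME1 was highest in the apex with young leaves, at 596 ± 19.6, and lowest in the hypocotyl. Its hypocotyl level (93.1 ± 6.15) and that of the second internode (108 ± 6.72) were the lowest of the organs. YAB3 was high in all apices, from 171 ± 11.3 in the apex with young leaves to 221 ± 3.84 in the vegetative apex, and low in the hypocotyl (17.3 ± 5.11), the internode (7.63 ± 2.38) and the node (10.5 ± 1.84).

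**Figure D4:**
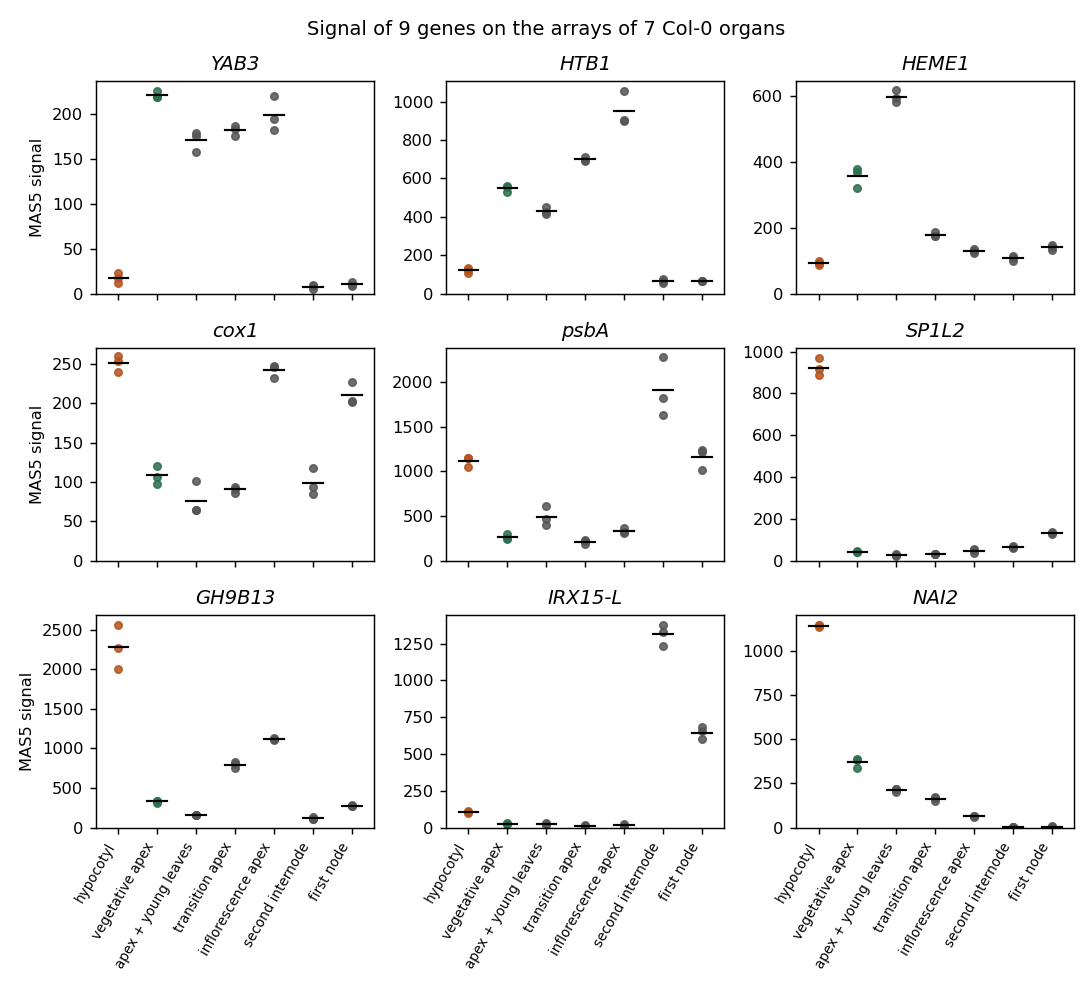
MAS5 signal of 9 genes on the 3 arrays of each of 7 Col-0 organs, on linear axes from 0. Points are arrays (hypocotyl orange, vegetative apex green, other organs grey) and bars are means. SP1L2, GH9B13 and NAI2 are highest in the hypocotyl, at means of 924, 2277 and 1141. IRX15-L is highest in the second internode, and YAB3 and HTB1 are high in the apices.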

How the data were processed

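The samples were of total RNA, the label was biotin, and the arrays were single-colour with 22810 probe sets. The deposited values are linear MAS5 signal intensities per probe set, per the labels, with the MAS5 version and settings not stated there. On each array the mean after trimming 2% at each end was 100, and no further normalization was applied. Signals were taken as log2(signal + 8). Probe sets entered where at least 3 of the 21 Col-0 organ arrays lay above their array's 40th percentile, and 64 control probe sets were left out. Group means of 7 organs were fitted with limma 3.58.1 in R 4.3.3 (lmFit, eBayes with trend, 14 residual degrees of freedom, two-sided, Benjamini-Hochberg over all probe sets), which was also tested on simulated data. All adjusted p-values printed are from limma. The number of arrays, not a read depth, limits the precision.

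The annotation gave 1 gene for 13513 probe sets, several for 503 and none for 8730. A symbol other than the locus name came with 1580, through the TAIR10.1 annotation. Where a gene had several probe sets, the one with the strongest mean signal stood for it. No coordinates are given, since no label or header names a genome build for the array. The members and gene lists were chosen with earlier results of these data known, and most lists were built from the annotated symbols. Named genes were the 15 highest and 15 lowest called changes with a symbol, no overlap and a signal of at least 8 in both groups, up to 4 called members per list and direction, every tested meristem, primordium and vascular gene, and the 5 highest and 5 lowest opposed genes between the stem-apex comparisons. Other genes named, such as cox1, rbcL, HCT, BCAT4, RCA, PRK, ATC and the members not called, were chosen after their values were seen.

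Alternatives were quantile normalization, scaling to the array median, offsets of 2 and 32, a 60th percentile filter and none, a robust or trendless eBayes, fits of 6 or 42 arrays, the replicate letter as a block, unique probe sets only, the RNA ratio as a covariate, another apex in the second comparison, and omission of single arrays. The replicate letters did not pair the samples: deviations of arrays with the same letter correlated at -0.064, 0.0088 and 0.025.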

Additional observations from a re-analysis of the deposited data

Results flagged for a closer look

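In 1563 probe sets the hypocotyl-apex change and the internode-inflorescence change were both called in opposite directions, with a called difference. Among genes with a symbol, the highest differences of this kind were GH9B13 (5.95), NANA (4.67), NAI2 (4.08), JAL33 (3.97) and ZW9 (3.68), which rose in the hypocotyl and fell in the internode relative to the inflorescence apex. ZW9 changed by 1.59 and -2.09, NANA by 2.46 and -2.21, and JAL33 by 3.51 and -0.45. The fall of JAL33 was between signals near background, 7.28 ± 3.15 in the internode and 12.8 ± 3.39 in the inflorescence apex. The lowest were iqd21 (-4.22), scpl31 (-3.38), AGL24 (-3.34), SFP2 (-3.32) and LHCB4.2 (-3.23), which fell in the hypocotyl and rose in the internode. AGL24 changed by -1.65 and 1.69, iqd21 by -2.66 and 1.56, and SFP2, a sugar transporter whose hypocotyl and apex arrays overlapped, by -0.32 and 3.0. The small fall of scpl31 in the hypocotyl (-0.40) was not called with the RNA ratio as a covariate (-0.36). Plant stage and organ cannot be told apart in these differences.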

How the results depend on the processing

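Of 3360 alternative values of 180 named genes, 3307 stayed called in the same direction or stayed not called, whatever their direction. Of the rest, 39 lost the call, 12 gained it, and 2 reversed. Both reversals came from the fit with the RNA integrity ratio, under which SWEET11 changed by 0.034 and ATG3 by 0.11. The same fit accounted for 14 of the lost calls. The ratio did not overlap between the organs, so it and the organ cannot be told apart fully. With an offset of 32, 1142 probe sets were at least 2-fold higher and 669 lower. With unique probe sets only, 8717 were tested, 6295 were called, 2977 higher and 3318 lower, with 990 and 616 at 2-fold or more, and the difference between stem-apex comparisons was called for 6051 (3574 higher, 2477 lower); fewer probe sets tested accounts for these counts. Leaving out each array in turn gave 11092 to 11413 called, 5210 to 5506 higher, 5799 to 5940 lower, 1692 to 1914 higher and 1231 to 1257 lower by 2-fold or more. For the difference between comparisons it gave 10912 to 11218 called, 6178 to 6522 higher and 4650 to 4768 lower, but its split turned to 4472 higher and 6981 lower with median scaling and was 5627 and 5574 under quantile normalization; with the transition apex in place of the inflorescence apex 11285 were called. The replicate block, by letters with no visible pairing, called 73.59% of probe sets and changed no call of a named gene. Scaling each array to the same median shifted the median change from -0.037 to -0.12 and the higher share of calls from 48.0% to 41.9%. List medians close to 0 reversed: plastid gene expression genes at -0.23 and auxin genes at 0.12 with the RNA ratio as a covariate, auxin genes at 0.60 with the 60th percentile filter and from -0.14 to 0.026 with 1 array left out, gibberellin genes at -0.011 with median scaling and -0.015 with the 60th percentile filter or only the 6 arrays, flavonoid genes from -0.085 to 0.011 with 1 array left out, and iron and root nutrition genes at -0.024 with median scaling. The cause was not tested.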
